A study of Mus musculus with 10 samples.

Results

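Interleukin 9 (IL-9), granulocyte-macrophage colony-stimulating factor (GM-CSF) and the type 2 cytokines IL-4, IL-5 and IL-13, together with IL-3, are described here through the 6 genes that encode them, *Il9*, *Csf2*, *Il4*, *Il5*, *Il13* and *Il3*. The genes were listed by name, with earlier results of these data known. Each has 1 probe set in the table, so 6 of its 45101 probe sets, and 6 of the 18193 genes named from it, belong to the set. RNA was measured on 10 Affymetrix GeneChip mouse genome arrays, 2 for each of 5 groups. T cells came from the spleens of wild-type C57BL/6 mice, and naïve CD4+ or CD8+ cells were sorted as CD44- cells. CD4+ effector memory (TEM) cells, CD4+ memory cells and CD8+ TEM cells were grown from naïve cells, which were co-cultured with IL-2 and γ-irradiated LMP1/2A+ B lymphoma cells, restimulated with these every week, and sorted on day 25. TEM and memory cells were both gated as CD44+, and the memory cells, titled CM in the labels, had the surface phenotype of central memory. The lymphoma line came from mice whose germinal center B cells express the Epstein-Barr virus proteins LMP1 and LMP2A under Cγ1-Cre. The naïve cells had no culture, so culture, restimulation and differentiation cannot be told apart in a comparison with them. The interval between the last restimulation and the sort is not given in the sources used here.

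IL-4, IL-5 and IL-13 are the cytokines of type 2 helper T (Th2) cells. IL-4 drives helper cells to the Th2 fate and B cells to IgE, IL-5 supports eosinophils, and IL-13 acts on epithelium and smooth muscle. IL-9 supports mast cells and T cells, and is made by helper cells that have seen IL-4 with TGF-β. GM-CSF and IL-3 are growth factors of myeloid cells, and GM-CSF is also made by activated CD8+ T cells. *Il4*, *Il13* and *Il5* lie side by side on mouse chromosome 11 around *Rad50*, whose introns hold the Th2 locus control region, and *Csf2* and *Il3* are neighbours further along the same chromosome. *Il9* lies on chromosome 13.

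The values are RMA signals on the log2 scale, and the array medians lay between 4.65 and 4.75. A value below its array's median is called low here. Group labels were checked against T cell markers. *Cd3e* read 12.72 to 13.29 on the 10 arrays. *Cd4* read 11.50 to 11.89 in the CD4+ groups and *Cd8b1* read 10.98 to 11.54 in the CD8+ groups, while *Cd8a*, the other CD8 chain, also read 7.67 and 8.17 in CD4+ TEM cells. In CD8+ TEM cells *Cd4* read 6.51 and 6.89, against 4.30 and 4.10 in naïve CD8+ cells. Of 45037 probe sets, 1576 differed at least 2-fold between the CD4+ TEM replicates, 3758 between the CD4+ memory replicates and 569 between the CD8+ TEM replicates. One array, naïve CD8+ replicate 2, stood apart from replicate 1 in 3 lists. The summed level of 12 immediate early and stress genes was 12.50 in replicate 2 and 15.51 in replicate 1, that of 11 B cell markers 11.15 and 8.96, and that of 10 eosinophil and myeloid markers 9.25 and 8.12. Called differences of the cytokine genes and of *Csf2rb* and *Il3ra* that rest on naïve CD8+ cells are therefore also given without it. For naïve CD8+ cells these rest on replicate 1 alone, which itself read apart from the other naïve arrays for some genes. *Ifng* read 7.50 there, against 3.40 in replicate 2 and 4.14 and 4.49 in naïve CD4+ cells. *Atf3* read 6.65, against 4.30 in replicate 2 and 4.40 and 4.04 in naïve CD4+ cells. Whether the replicates are separate animals is not stated, so p-values measure the spread between these arrays only.

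*Il9* was high in a single group. It read 10.75 and 10.81 in the CD4+ TEM replicates, against 3.47 and 3.68 in CD4+ memory cells, 3.99 and 3.16 in CD8+ TEM cells, 3.53 and 3.33 in naïve CD4+ cells and 3.32 and 3.20 in naïve CD8+ cells. The 8 arrays outside CD4+ TEM cells were all low and their groups could not be ordered, since all lay between 3.16 and 3.99. The gap from the highest of them to the lower CD4+ TEM array was 6.76 on the log2 scale.

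*Csf2*, the gene of GM-CSF, was high in both TEM groups. It read 10.13 and 9.98 in CD4+ TEM cells and 8.13 and 7.88 in CD8+ TEM cells, against 3.86 and 4.98 in CD4+ memory cells, 3.23 and 4.55 in naïve CD4+ cells and 3.73 and 3.36 in naïve CD8+ cells. The pairs of the TEM groups did not overlap each other or any other group, whereas CD4+ memory and naïve CD4+ cells overlapped. *Il13* had the same first place with smaller steps below it. It read 8.93 and 8.61 in CD4+ TEM cells, 5.51 and 5.65 in CD8+ TEM cells, 4.89 and 5.10 in CD4+ memory cells, 3.99 and 4.40 in naïve CD4+ cells and 4.69 and 4.15 in naïve CD8+ cells. All 6 day 25 arrays were above their medians and all 4 naïve arrays lay below theirs.

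*Il4* was above the median on 5 of the 6 day 25 arrays. It read 6.48 and 6.88 in CD4+ TEM cells, 5.35 and 3.94 in CD4+ memory cells, 4.75 and 5.19 in CD8+ TEM cells, 2.50 and 3.38 in naïve CD4+ cells and 2.80 and 3.17 in naïve CD8+ cells. CD4+ TEM arrays were the highest, the CD4+ memory and CD8+ TEM pairs overlapped, and both naïve groups were low. *Il5* read 5.96 and 5.29 in CD4+ TEM cells and was low on the other 8 arrays, which lay between 3.13 and 3.53. *Il3* read 3.14 and 2.76 in CD4+ TEM cells and 2.42 to 2.68 elsewhere, and was low on all 10 arrays. The order of *Il3* values is therefore an order among low signals.

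**Figure D1:**
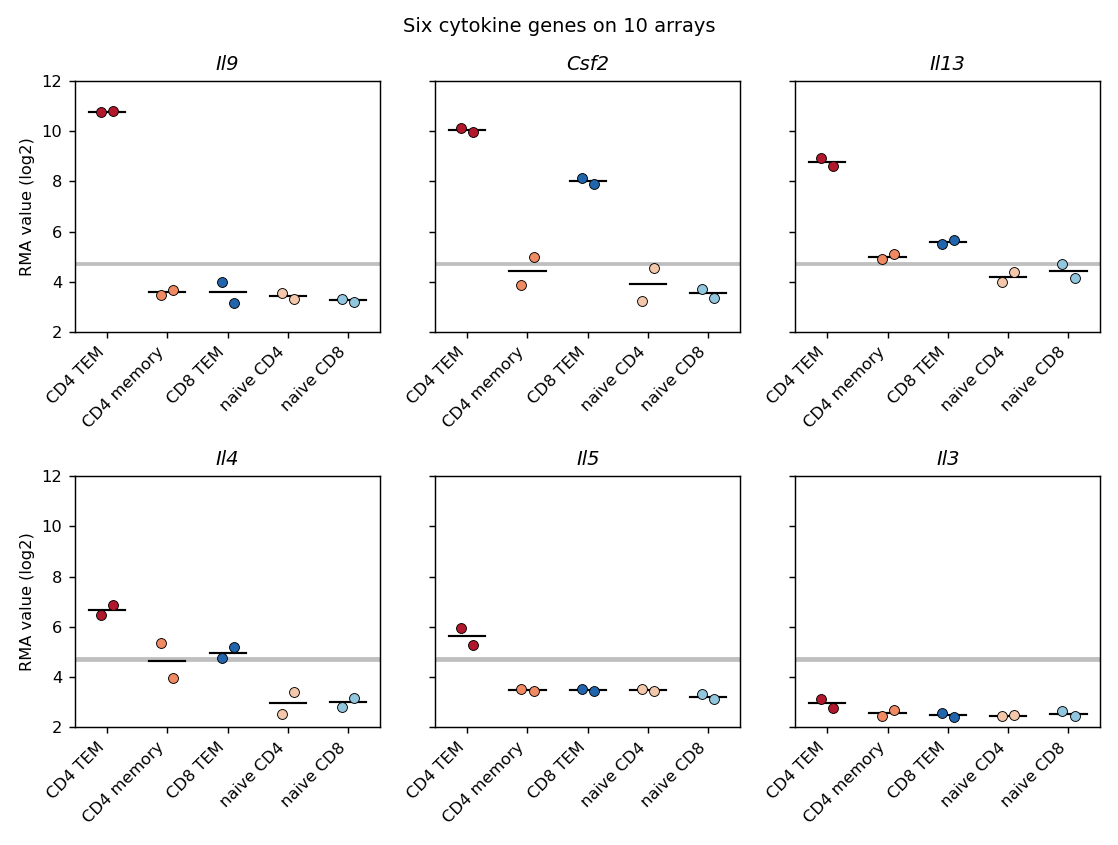
RMA values (log2) of the 6 cytokine genes on each of the 10 arrays. Each point is 1 array, black lines are the means of 2 arrays, and the gray band spans the 10 array medians (4.65 to 4.75). *Il9* stands near 10.8 in CD4+ TEM cells and below the band elsewhere, *Csf2* is high in both TEM groups, and *Il3* is below the band on every array.

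The sequences just upstream of *Il9*, *Csf2* and *Il13*, the genes of the set that differed most between CD4+ TEM and CD4+ memory cells, are shown as RefSeq gives them for GRCm38.p6: the 250 bases before the annotated start, 5′ to 3′ on the gene's strand, which is the minus strand for all 3. Capitals mark matches on either strand to 4 motifs of factors that act on these genes, AP-1 with the letters TGANTCA, the NFAT core with GGAAA, GATA with the letters GATAA, and STAT with TTCNNNNGAA. Matches are descriptions of letters, not binding sites.
Il9 (chr13:56482258-56482507): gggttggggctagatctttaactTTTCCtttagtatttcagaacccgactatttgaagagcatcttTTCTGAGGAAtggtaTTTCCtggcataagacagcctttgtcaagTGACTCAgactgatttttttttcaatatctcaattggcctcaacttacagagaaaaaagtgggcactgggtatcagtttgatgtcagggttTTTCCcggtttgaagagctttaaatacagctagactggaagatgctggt
Il13 (chr11:53634703-53634952): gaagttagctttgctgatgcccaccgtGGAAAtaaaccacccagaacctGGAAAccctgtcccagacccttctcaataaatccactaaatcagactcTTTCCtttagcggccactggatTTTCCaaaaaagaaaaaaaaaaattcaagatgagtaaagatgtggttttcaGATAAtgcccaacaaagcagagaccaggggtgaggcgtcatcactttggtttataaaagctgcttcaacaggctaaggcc
Csf2 (chr11:54249900-54250149): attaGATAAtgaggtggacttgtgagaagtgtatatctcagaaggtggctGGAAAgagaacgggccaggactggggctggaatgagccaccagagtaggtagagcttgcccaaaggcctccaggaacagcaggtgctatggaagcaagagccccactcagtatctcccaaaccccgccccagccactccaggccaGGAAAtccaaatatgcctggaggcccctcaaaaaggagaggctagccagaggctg
The *Il9* window held 1 AP-1 match, TGACTCA, 134 to 140 bases before the start, 1 STAT match and 3 NFAT cores. The *Il13* window held 4 NFAT cores and 1 GATA match, and the *Csf2* window 2 NFAT cores and 1 GATA match. No matches overlapped in these 3 windows. Of 32851 such windows in RefSeq, 6.75% held the AP-1 letters, 5.85% the STAT letters, 22.6% the GATA letters and 55.6% the NFAT core, so the last 2 are common. Among the other members, *Il5* had 2 NFAT cores, *Il3* had 1 NFAT core and 2 GATA matches, and *Il4* had 5 NFAT cores, 1 of them overlapping a STAT match, in 1 of its 2 annotated windows and none of the 4 motifs in the other.

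CD4+ TEM and CD4+ memory cells came from CD4+ T cells cultured in the same way. All cytokine genes of the set but *Il3* were higher in TEM cells. *Il9* was 7.20 log2 units higher (SE 0.25, adjusted p = 7.23e-06), a 147-fold difference, and *Csf2* was 5.63 higher (SE 0.46, adjusted p = 0.000491), or 49.6-fold. *Il13* was 3.78 higher (SE 0.23, adjusted p = 0.00011), *Il5* was 2.14 higher (SE 0.21, adjusted p = 0.00125) and *Il4* was 2.04 higher (SE 0.47, adjusted p = 0.0468). These p-values come from limma with Benjamini-Hochberg adjustment over all genes, as do all adjusted p-values that follow, and genes were called where it was under 0.05. Of the 6 genes, 5 were thus called higher, where 3.89% of all genes were called higher, 1.64% lower and 5.52% in either direction. The median difference of the 6 genes was 2.96, against -0.03 over all genes. *Il3* differed by 0.39 (SE 0.18, adjusted p = 0.258). In such bulk RNA, fewer cells that express a gene and less RNA per cell cannot be told apart.

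The *Il4* call was the least stable of these. It was lost without any 1 of 9 of the 10 arrays, with adjusted p between 0.0562 and 0.197, and kept only without CD4+ memory replicate 1, whose 5.35 was the higher memory value. Without CD4+ memory replicate 2 the *Il4* difference was 1.33 (adjusted p = 0.107). With a fit to only the 4 arrays compared, *Il5* and *Il4* lost their calls (adjusted p = 0.0604 and 0.195) and 3 members remained, *Il9*, *Csf2* and *Il13*.

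CD4+ and CD8+ TEM cells, sorted by the same phenotype from separate cultures, differed in 4 of the 6 genes, all higher in CD4+ cells, where 2.19% of all genes were called higher, 3.53% lower and 5.72% in either direction. *Il9* was 7.20 log2 units higher (SE 0.25, adjusted p = 1.54e-05), *Il13* was 3.19 higher (SE 0.23, adjusted p = 0.000376) and *Il5* was 2.15 higher (SE 0.21, adjusted p = 0.00191). *Csf2*, high in both, was 2.05 higher in CD4+ cells (SE 0.46, adjusted p = 0.0427), or 4.15-fold. *Il4* differed by 1.71 (SE 0.47, adjusted p = 0.0764) and *Il3* by 0.45 (SE 0.18, adjusted p = 0.195). The median of the 6 was 2.10, against -0.03 over all genes. The *Csf2* call was lost without any 1 of 6 arrays, which are the 4 TEM arrays and the 2 naïve CD8+ arrays, at differences of 1.93 to 2.18 and adjusted p of 0.0616 to 0.233. The *Il4* difference stayed at 1.71 and was called when either CD4+ memory array was left out (adjusted p = 0.0244), so neither gene is firmly on 1 side of the threshold.

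CD4+ memory and CD8+ TEM cells differed in *Csf2* alone among the 6, where 20.7% of all genes were called, 7.22% higher and 13.5% lower in memory cells. *Csf2* was lower in memory cells by 3.58 log2 units (-3.58, SE 0.46, adjusted p = 0.0016). *Il13* differed by -0.59 (SE 0.23, adjusted p = 0.112) and *Il4* by -0.32 (SE 0.47, adjusted p = 0.679), while *Il9*, *Il5* and *Il3* differed by 0.00, 0.01 and 0.06, all at low signals. *Csf2* was thus the member that separated each pair of day 25 groups, although its call between the TEM groups was lost without single arrays as given above.

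**Figure D2:**
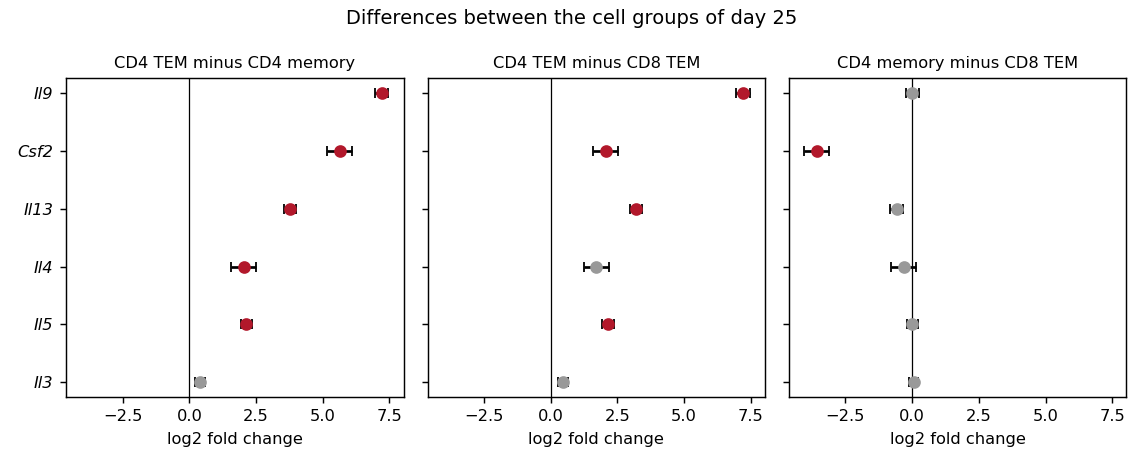
Log2 fold changes of the 6 cytokine genes between the groups of day 25, first group minus second. Points are limma estimates, bars their standard errors, and red points have an adjusted p under 0.05. *Il9* lies at 7.20 in both comparisons of CD4+ TEM cells and at 0.00 between CD4+ memory and CD8+ TEM cells, where *Csf2* alone is red, at -3.58.

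Against naïve CD4+ cells, CD4+ TEM cells showed higher values of 5 of the 6 genes, where 16.4% of all genes were called higher, 10.1% lower and 26.5% in either direction. *Il9* was 7.35 log2 units higher (SE 0.25, adjusted p = 7.28e-07), *Csf2* was 6.17 higher (SE 0.46, adjusted p = 3.92e-05), *Il13* was 4.58 higher (SE 0.23, adjusted p = 4.47e-06), *Il4* was 3.74 higher (SE 0.47, adjusted p = 0.000622) and *Il5* was 2.17 higher (SE 0.21, adjusted p = 0.000165). These 5 calls held without any single array. *Il3* differed by 0.50 (SE 0.18, adjusted p = 0.0743). It was called with trended robust moderation and with array weights (adjusted p = 0.0427 and 0.0465), at values that are still below the array medians.

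CD4+ memory cells differed from naïve CD4+ cells in 2 of the 6 genes, *Il4* and *Il13*, where 13.5% of all genes were called higher, 9.78% lower and 23.2% in either direction. *Il4* was 1.71 higher (SE 0.47, adjusted p = 0.0326) and *Il13* was 0.80 higher (SE 0.23, adjusted p = 0.0388). *Csf2* differed by 0.53 (SE 0.46, adjusted p = 0.479), *Il9* by 0.15 (SE 0.25, adjusted p = 0.74), *Il3* by 0.11 and *Il5* by 0.03. Both calls rested on single arrays. That of *Il4* was lost without CD4+ memory replicate 1 (0.998, adjusted p = 0.12), without naïve CD4+ replicate 1 (1.27, adjusted p = 0.186) and without either CD8+ TEM array (1.71, adjusted p = 0.0518), and the difference was 2.41 without CD4+ memory replicate 2. That of *Il13* was lost without any 1 of 6 arrays, the CD4+ memory, CD8+ TEM and naïve CD4+ arrays, at adjusted p of 0.0522 to 0.209.

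CD8+ TEM cells differed from naïve CD8+ cells in 3 of the 6 genes, where 20.9% of all genes were called higher, 17.2% lower and 38.1% in either direction. *Csf2* was 4.46 higher (SE 0.46, adjusted p = 0.00014), or 22.0-fold, *Il4* was 1.98 higher (SE 0.47, adjusted p = 0.0102) and *Il13* was 1.16 higher (SE 0.23, adjusted p = 0.00417). Without naïve CD8+ replicate 2 these differences were 4.28 (adjusted p = 0.00183), 2.17 (adjusted p = 0.032) and 0.89 (adjusted p = 0.0246). The *Il4* call was lost without CD8+ TEM replicate 2 (1.76, adjusted p = 0.0692) and without naïve CD8+ replicate 1 (1.80, adjusted p = 0.0664). *Il9* differed by 0.32 (SE 0.25, adjusted p = 0.391). Its CD8+ TEM replicates read 3.99 and 3.16, so it was called without replicate 2 (0.73, adjusted p = 0.0288) and was -0.10 without replicate 1.

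The change in CD4+ TEM cells minus the change in CD8+ TEM cells, each from its own naïve cells, was tested in the same fit. It was 7.04 for *Il9* (SE 0.35, adjusted p = 0.000186), 3.41 for *Il13* (SE 0.32, adjusted p = 0.00105) and 1.91 for *Il5* (SE 0.30, adjusted p = 0.00685), so 3 of the 6 genes rose more in CD4+ cells, where 8.03% of all genes were called in that direction, 4.49% in the other and 12.5% in either. Without naïve CD8+ replicate 2 these were 7.10 for *Il9* and 3.68 for *Il13*, with adjusted p = 0.00211 and 0.00334, and *Il5* was still called (adjusted p = 0.0156). For *Il4* it was 1.76 (SE 0.66, adjusted p = 0.133) and for *Csf2* 1.71 (SE 0.66, adjusted p = 0.141). *Il4* was called when either CD4+ memory array was left out and with only the arrays compared, each time at adjusted p = 0.0422. *Csf2* was called under none of the 20 alternatives, with adjusted p of 0.0541 to 0.327.

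**Figure D3:**
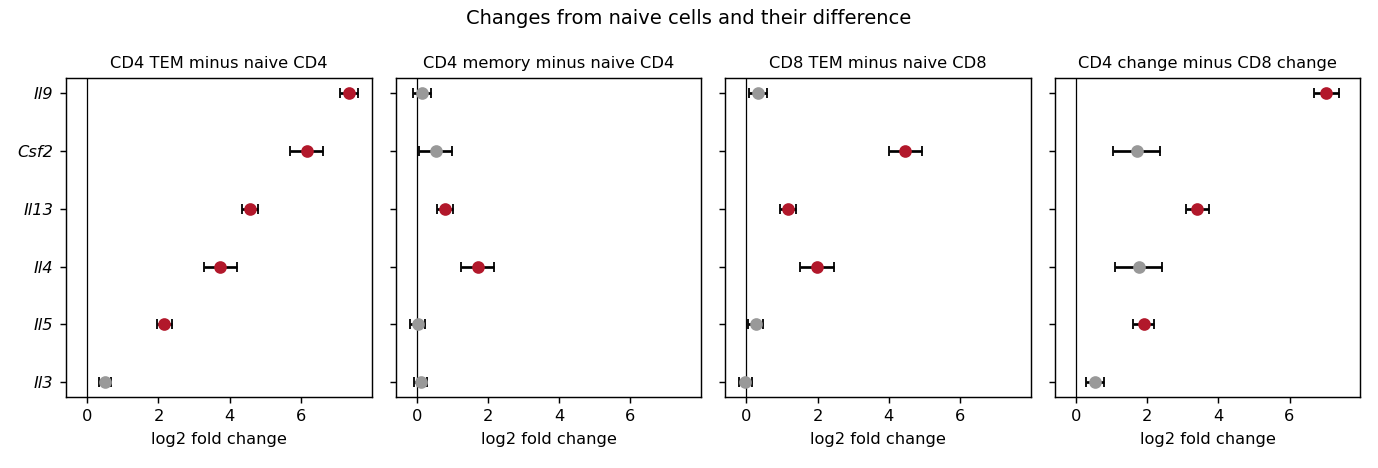
Log2 fold changes of the 6 cytokine genes from naïve cells in CD4+ TEM, CD4+ memory and CD8+ TEM cells, and the CD4+ TEM change minus the CD8+ TEM change. Points are limma estimates, bars standard errors, and red points have an adjusted p under 0.05. *Csf2* is red in both TEM groups, at 6.17 and 4.46, while the rise of *Il9* by 7.35 has no counterpart in the other panels of change.

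Signals of other cells and of RNA quality were measured beside these changes. The 11 B cell markers, the kind of cell used as stimulator, had summed levels of 13.72 to 13.90 in CD4+ TEM cells, 13.41 to 13.60 in CD4+ memory cells and 14.84 to 14.86 in CD8+ TEM cells, against 8.23 to 8.53 in naïve CD4+ cells, and 8, 10 and 8 of them were above the array medians on both arrays of the day 25 groups. Of the 11, 7 were called higher in CD4+ TEM than in naïve CD4+ cells, against 16.4% of all genes. *Ebf1*, a defining B cell factor, read 10.56 and 10.32 in CD4+ TEM cells and 3.71 and 2.93 in naïve CD4+ cells, while *Pax5*, another, was below the median on all 10 arrays. None of the 11 was called between the TEM groups, and 1, *Vpreb3*, was lower in CD4+ TEM than in CD4+ memory cells (-1.25, adjusted p = 0.0251). The shares of all genes were 5.72% and 1.64%. The lack of calls does not show equal B cell signal in the TEM groups. *H2-Eb1* read 10.85 and 10.59 in CD4+ and 12.53 and 12.65 in CD8+ TEM cells (-1.87, SE 0.82). *Cd74* differed by -1.20 (SE 0.88). Both SEs come from a spread pooled over all 5 groups, and *Cd74* read 6.12 and 9.57 in naïve CD8+ cells. *Cd79a*, *Ms4a1* and *Pax5* were instead higher in CD4+ TEM cells (0.897, 0.737 and 0.429), also not called. Between CD4+ memory and CD8+ TEM cells 2 of the 11 were higher and 1 lower in memory cells, against 7.22% and 13.5% of all genes. Mast cells can make the same cytokines. In CD4+ TEM cells 2 of 10 mast cell and basophil markers, *Kit* and *Gata2*, were above the medians on both arrays, and the summed level was 9.95 to 10.11, against 8.02 to 9.10 in CD4+ memory and 8.65 to 8.74 in CD8+ TEM cells. *Kit*, the stem cell factor receptor, made most of that sum at 9.83 and 9.76 in CD4+ TEM cells, while *Fcer1a* read 2.56 and 2.42, *Ms4a2* 3.31 and 3.27 and *Cpa3* 3.17 and 3.58. Of 10 eosinophil and myeloid markers, 3 were called higher and none lower in each day 25 group than in its naïve cells. The shares of all genes called higher were 16.4% in CD4+ TEM, 13.5% in CD4+ memory and 20.9% in CD8+ TEM cells. On the *Gapdh* control probe sets, the 3′ signal exceeded the 5′ signal by 0.91 to 1.72 on day 25 arrays and 2.42 to 2.75 on naïve arrays. The 12 immediate early and stress genes had a median of -3.34 in CD4+ TEM against naïve CD4+ cells. Of these, 7 were called lower and 1 higher, against 10.1% and 16.4% of all genes. Against CD4+ memory cells 1 of the 12 was higher and 0 lower in CD4+ TEM cells. It was *Egr2*, at 8.74 and 8.37 against 4.60 and 5.10, with 7.99 and 7.94 in CD8+ TEM cells. Between the TEM groups 1 was higher in CD4+ cells and 0 lower, *Egr1* (1.43, adjusted p = 0.0333), a call lost without any 1 of 6 arrays. The shares of all genes called higher were 3.89% and 2.19%. The part of these signals in the changes from naïve cells and in the differences between day 25 groups was not tested.

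Receptors for the 6 cytokines were called only against naïve cells. Of 9 measured genes none was called between CD4+ TEM and CD4+ memory cells, between CD4+ and CD8+ TEM cells, or between CD4+ memory and CD8+ TEM cells. The shares of all genes called were 5.52%, 5.72% and 20.7%. The first 2 are so low that the lack of a call among 9 genes does not set these receptors apart. *Csf2rb*, the shared β chain of the IL-3, IL-5 and GM-CSF receptors, read 7.56 and 7.43 in CD4+ TEM cells, 9.28 and 8.34 in CD4+ memory cells and 6.92 and 7.73 in CD8+ TEM cells, against 4.68 and 3.99 in naïve CD4+ and 3.92 and 5.37 in naïve CD8+ cells. It rose from the naïve state in all 3 (3.16, 4.48 and 2.68, with adjusted p = 0.00278, 0.000567 and 0.00406), and so did *Il3ra*, the IL-3 receptor α chain (1.24, 1.59 and 1.16). Without naïve CD8+ replicate 2 the CD8+ TEM changes were 3.40 for *Csf2rb* and 1.30 for *Il3ra*, both still called. *Il4ra* was above the medians on all arrays, at 8.91 to 9.64. *Il9r* and *Il5ra* were low on every array, at 2.11 to 2.79 and 2.59 to 3.27. *Il13ra1* was called higher in CD4+ TEM than in naïve CD4+ cells (1.32, adjusted p = 0.0386), but its CD4+ TEM replicates read 4.94 and 3.95 and the mean of its probe sets gave 0.29 (adjusted p = 0.252).

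Of 11 receptors that act upstream of type 2 and IL-9 production, 2 were higher in CD4+ TEM than in CD4+ memory cells and none lower. The shares of all genes were 3.89% and 1.64%. *Il1r1*, the IL-1 receptor, read 6.03 and 6.92 in CD4+ TEM cells and 4.05 and 3.82 in CD4+ memory cells (2.54, adjusted p = 0.00392). *Icos*, a costimulatory receptor of helper cells, read 11.17 and 11.23 against 9.46 and 9.87 (1.53, adjusted p = 0.00253). *Il1r1* was just as high in CD8+ TEM cells, at 6.27 and 6.98, where *Il9* was low. Between the TEM groups 1 was called, *Tgfbr1*, a TGF-β receptor chain, at 9.51 and 9.57 in CD4+ and 7.94 and 8.05 in CD8+ cells (1.54, adjusted p = 0.00369). With the mean of its probe sets the *Tgfbr1* difference was 0.47 (adjusted p = 0.111). Between these groups 5.72% of all genes were called. *Il2ra*, *Il2rb* and *Tnfrsf4*, the IL-2 receptor α and β chains and OX40, were 5.07, 4.91 and 5.37 higher in CD4+ TEM than in naïve CD4+ cells, with adjusted p between 3.39e-07 and 4.11e-06.

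Of 25 transcription factors known from type 2, IL-9 or GM-CSF genes, 5 were higher in CD4+ TEM than in CD4+ memory cells and none lower. The shares of all genes were 3.89% and 1.64%, and the median over the 25 was 0.07. Between the TEM groups 4 of the 25 were higher and 3 lower in CD4+ cells, against 2.19% and 3.53% of all genes. *Bhlhe40*, also listed, read 12.63 and 12.69 in CD4+ TEM, 12.70 and 12.71 in CD4+ memory and 12.53 and 12.52 in CD8+ TEM cells, against 6.55 and 7.29 in naïve CD4+ cells. *Maf*, an activator of *Il4*, read 8.69 and 8.86 in CD4+ TEM cells and 3.24 and 3.74 in CD4+ memory cells (5.28, SE 0.39, adjusted p = 0.000297). In naïve CD4+ cells *Maf* read 8.58 and 8.75, so the difference lay in memory cells, which were lower than naïve cells (-5.17, adjusted p = 5.36e-05). *Pparg*, a nuclear receptor of Th2 and IL-9 producing cells, read 6.07 and 6.51 in CD4+ TEM cells, 4.14 and 4.43 in CD4+ memory cells and 8.53 and 8.55 in CD8+ TEM cells. *Batf3*, an AP-1 family factor, had the same order, at 7.68 and 7.41 in CD4+ TEM cells, 5.22 and 6.02 in CD4+ memory cells and 8.87 and 8.98 in CD8+ TEM cells. Both were thus highest in CD8+ TEM cells (CD4+ TEM minus CD8+ TEM -2.25 and -1.38, adjusted p = 0.000864 and 0.0196), unlike *Il9*, and the *Batf3* difference lost its call without any 1 of the 4 TEM arrays (adjusted p = 0.0611 to 0.14). *Etv5*, an ETS factor linked to IL-9, read 6.10 and 6.40 in CD4+ TEM, 3.94 and 4.64 in CD4+ memory and 6.65 and 6.58 in CD8+ TEM cells. With a fit to only the arrays compared, *Batf3*, *Etv5*, *Il1r1* and *Icos* were no longer called between CD4+ TEM and CD4+ memory cells (adjusted p = 0.0639 to 0.0955).

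*Gata3*, the defining Th2 factor, did not follow the type 2 cytokines within the CD4+ groups. It read 8.51 and 9.12 in CD4+ TEM cells, 9.62 and 9.73 in CD4+ memory cells, 6.66 and 7.39 in CD8+ TEM cells, 9.64 and 9.60 in naïve CD4+ cells and 7.97 and 7.93 in naïve CD8+ cells. It was higher in CD4+ than in CD8+ TEM cells (1.79, SE 0.27, adjusted p = 0.0103), a call lost without CD4+ TEM replicate 2 or CD8+ TEM replicate 1 (1.49 and 1.43, adjusted p = 0.0635 and 0.0572). *Maf* was also higher in CD4+ than in CD8+ TEM cells (2.80, SE 0.39, adjusted p = 0.0073), and lost its call without the same arrays (2.72 and 2.47, adjusted p = 0.0573 and 0.0623). *Irf4*, needed for Th2 cytokines and IL-9, read 12.02 and 12.06 in CD4+ TEM, 10.58 and 10.37 in CD4+ memory and 12.50 and 12.54 in CD8+ TEM cells, against 8.81 and 8.57 in naïve CD4+ cells. *Spi1* encodes PU.1, the factor first tied to IL-9 in helper cells. It was looked up after its values were known and read 4.24 to 5.17 on the 10 arrays, near the array medians.

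**Figure D4:**
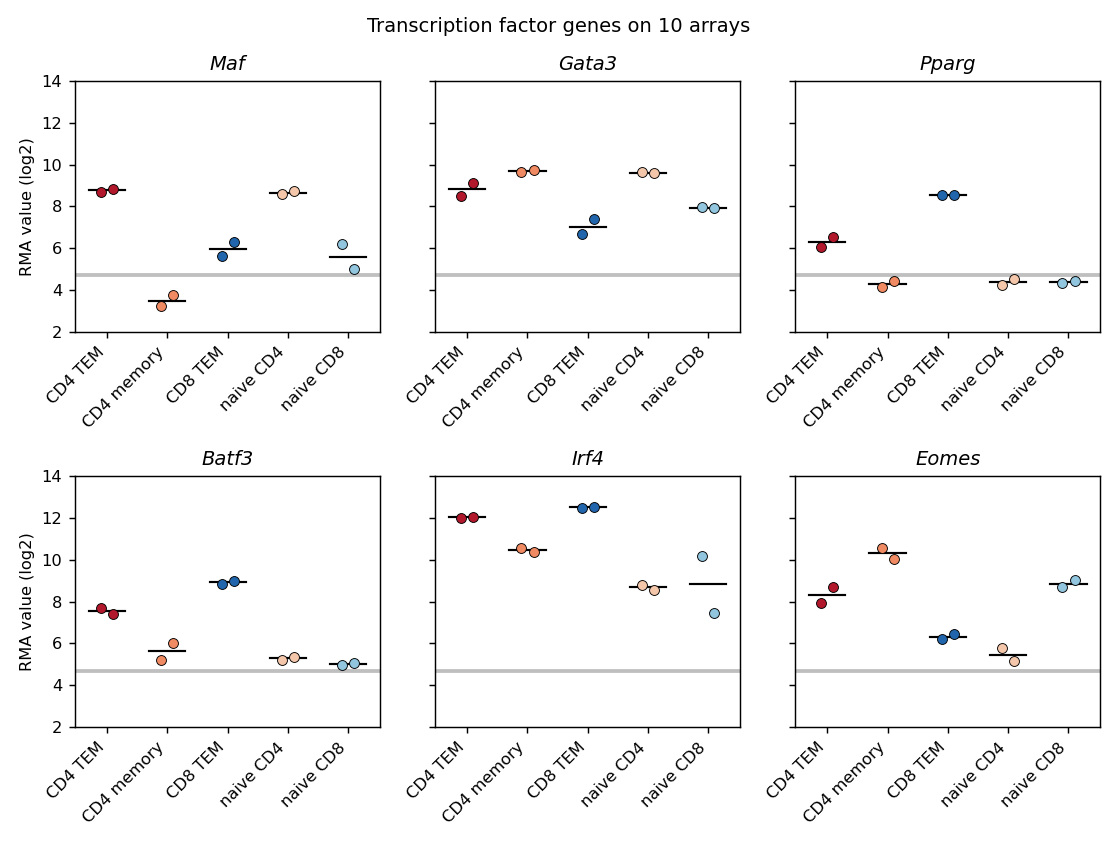
RMA values (log2) of 6 transcription factor genes on each array, with points, means and median band as in the plot of the cytokine genes. *Maf* is lowest in CD4+ memory cells, *Pparg* and *Batf3* are highest in CD8+ TEM cells, and *Eomes* is highest in CD4+ memory cells.

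Of 16 repressors and opposing factors, 2 were higher and 1 lower in CD4+ TEM than in CD4+ memory cells, against 3.89% and 1.64% of all genes. *Eomes*, which encodes a T-box factor of cytotoxic lymphocytes, was the lower one, at 7.94 and 8.70 in CD4+ TEM cells and 10.58 and 10.04 in CD4+ memory cells (-1.99, adjusted p = 0.0119; -1.61 and adjusted p = 0.0688 without CD4+ TEM replicate 1). *Zbtb32*, which binds and represses GATA-3, was higher, at 8.05 and 7.23 against 5.54 and 5.50 (2.12, adjusted p = 0.00251). With only the arrays compared neither *Eomes* nor *Zbtb32* was called (adjusted p = 0.105 and 0.0797). Of the same 16, 5 were higher and 1 lower in CD4+ than in CD8+ TEM cells, against 2.19% and 3.53% of all genes. *Bcl6*, a repressor of Th2 genes, was among them, at 7.47 and 7.46 in CD4+ TEM and 5.75 and 5.05 in CD8+ TEM cells (2.06, adjusted p = 0.00247). *Tbx21*, also listed, read 7.47 and 7.56 in CD4+ TEM, 7.29 and 7.61 in CD4+ memory and 8.65 and 8.59 in CD8+ TEM cells. In naïve CD4+ cells *Tbx21* read 4.14 and 2.66.

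Some other T cell cytokines were also higher in CD4+ TEM cells. Of 15 measured, 5 were higher in CD4+ TEM than in CD4+ memory cells and none lower, with a median of 0.78. The shares of all genes were 3.89% and 1.64%. *Ifng*, the type 1 cytokine, read 10.22 and 10.06 in CD4+ TEM cells, 4.67 and 4.80 in CD4+ memory cells and 11.12 and 11.12 in CD8+ TEM cells (CD4+ TEM minus CD4+ memory 5.41, SE 1.04, adjusted p = 0.0238). This call was lost without any 1 of 6 arrays, those of the 3 day 25 groups, and held under 14 of the 20 alternatives. Without single arrays the *Ifng* difference stayed between 5.33 and 5.49. The SE comes from a spread pooled over all 5 groups, and the naïve CD8+ replicates, outside this comparison, read 7.50 and 3.40. *Il21*, a cytokine of helper cells, read 6.17 and 6.77 in CD4+ TEM, 2.60 and 2.85 in CD4+ memory and 6.44 and 7.14 in CD8+ TEM cells (3.74, adjusted p = 0.00033). Between the TEM groups none of the 15 was higher in CD4+ cells and 1, *Il24*, was lower (-1.05, adjusted p = 0.0315). The shares of all genes were 2.19% and 3.53%. The *Il24* call was lost without any 1 of the 4 TEM arrays, and its difference ranged from -1.16 to -0.94 without single arrays.

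Of 13 surface and chemokine genes listed for Th2 cells, 6 were higher in CD4+ TEM than in CD4+ memory cells and none lower. The shares of all genes were 3.89% and 1.64%, and the median of the list was 0.47. Between the TEM groups 3 of the 13 were higher and 2 lower in CD4+ cells, against 2.19% and 3.53% of all genes. *Cysltr1*, a lower one, read 7.78 and 7.72 in CD4+ and 8.94 and 9.01 in CD8+ TEM cells (-1.22, adjusted p = 0.0181). *Ccl22* read 12.26 and 12.30 in CD4+ TEM and 12.95 and 12.65 in CD4+ memory cells. Not all of the list is particular to Th2 cells. *Ccl3* and *Tnfsf11*, both among the 6, also read 8.26 and 8.54 and 11.04 and 11.02 in CD8+ TEM cells. The CD4+ memory replicates of *Ccl3* read 2.97 and 5.81. Its call against them held under 18 of the 20 alternatives and was lost without CD4+ TEM replicate 1. *Ptgdr2*, also listed, was low on all 10 arrays, at 3.17 to 4.34. *Ccr4* overlapped between CD4+ TEM (5.61 and 3.96) and CD4+ memory cells (3.40 and 5.49). *Ccl1*, the ligand of CCR8, read 11.59 and 11.23 in CD4+ TEM cells, 3.66 and 5.02 in CD4+ memory cells and 7.71 and 8.04 in CD8+ TEM cells (7.07 and 3.54 higher in CD4+ TEM cells, adjusted p = 5.92e-05 and 0.00295). *Penk*, the enkephalin precursor, read 11.81 and 11.74, against 7.25 and 7.56 in CD4+ memory and 8.05 and 7.84 in CD8+ TEM cells (4.37 and 3.83, adjusted p = 7.23e-06 and 2.72e-05). *Ccr8*, a chemokine receptor of Th2 cells, read 5.83 and 5.93 in CD4+ TEM and 2.46 and 2.55 in CD8+ TEM cells (3.38, adjusted p = 0.000101). *Ccr3*, the eotaxin receptor, was below the median in CD4+ TEM cells, at 2.93 and 3.03, and near or below it in CD8+ TEM cells, at low signals that differed between the groups (-1.48, adjusted p = 0.00396).

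Genes next to the 6 cytokine genes were read beside them. Of 12 measured neighbours, none was higher in CD4+ TEM than in CD4+ memory cells and 1 was lower, against 3.89% and 1.64% of all genes, with a median of -0.14. Between CD4+ and CD8+ TEM cells 2 were higher and none lower, against 2.19% and 3.53% of all genes, with a median of 0.08. For the difference of changes 3 were higher and 1 lower, against 8.03% and 4.49% of all genes. *Septin8*, a septin gene near *Il4*, was 1 of the 2, at 8.52 and 7.82 in CD4+ TEM and 7.03 and 6.90 in CD8+ TEM cells (1.21, adjusted p = 0.0249), a call lost without CD4+ TEM replicate 1 or either CD8+ TEM array (adjusted p = 0.0797 to 0.166) and with the mean of its probe sets (0.29). *Rad50*, which lies between *Il13* and *Il5*, read 8.02 and 8.07 in CD4+ TEM and 8.17 and 7.73 in CD8+ TEM cells, against 7.11 and 6.30 in CD4+ memory cells, and was not called in either comparison of CD4+ TEM with day 25 cells. *Pdlim4*, a LIM domain gene 2 positions from *Csf2*, ran the other way, at 6.61 and 7.06 in CD4+ TEM cells and 10.78 and 10.53 in CD4+ memory cells (-3.82, SE 0.31, adjusted p = 0.000462). In CD8+ TEM cells *Pdlim4* read 4.39 and 3.90, so it was higher in CD4+ TEM cells there (2.69, adjusted p = 0.00374). *P4ha2*, the gene next to *Csf2*, was about 5 log2 units higher in all 3 day 25 groups than in naïve cells (5.12, 5.24 and 5.19, adjusted p = 9.84e-07, 1.52e-06 and 8.28e-07), including CD4+ memory cells, where *Csf2* was not called. *Slc25a48* and *Fbxl21*, the neighbours of *Il9*, read 3.47 to 3.95 and 2.52 to 3.31 on the 10 arrays.

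**Figure D5:**
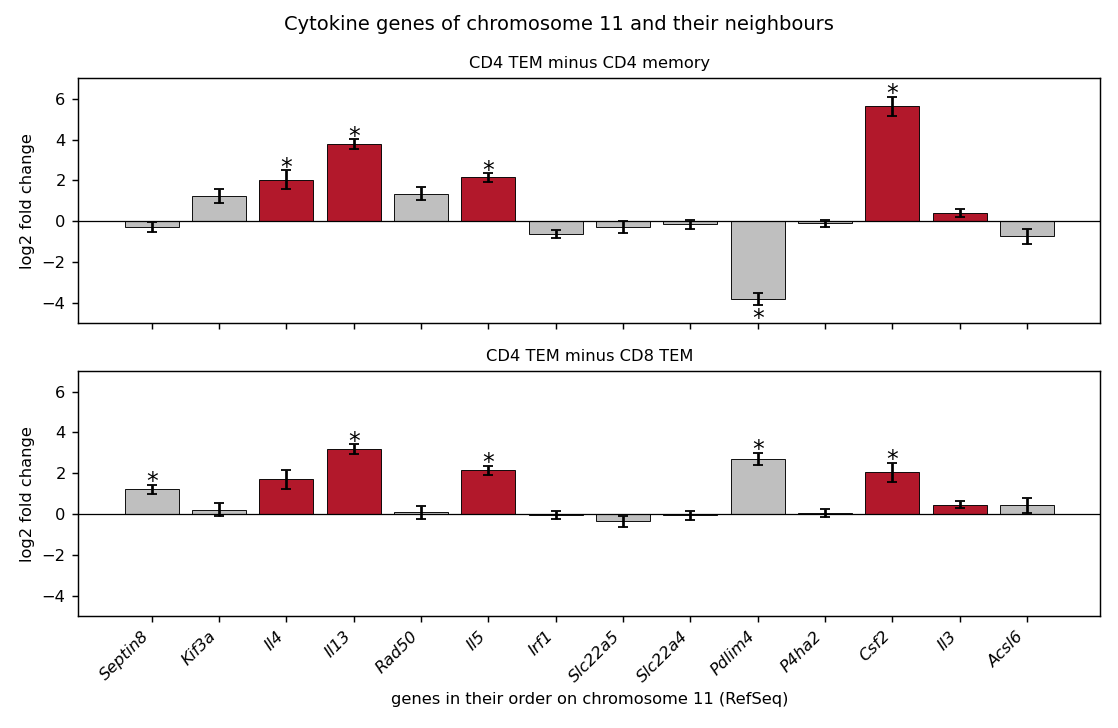
Log2 fold changes (bars) with standard errors for the chromosome 11 cytokine genes (red) and their measured neighbours (gray), in gene order and not to scale, for CD4+ TEM minus CD4+ memory cells (above) and CD4+ TEM minus CD8+ TEM cells (below). Asterisks mark an adjusted p under 0.05. *Pdlim4* is at -3.82 in the upper panel and 2.69 in the lower.

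The genes whose pattern over the 10 arrays was most like that of each member were taken by Pearson's r among 4721 genes that span at least 2 log2 units (4722 for *Il3*). The points share groups and arrays, and for *Il9* the r reflects mainly the 2 CD4+ TEM arrays. *Il9* was most like *Pdpn* (r = 0.994), the gene of podoplanin, which read 8.12 and 8.14 in CD4+ TEM cells and 2.53 to 3.48 on the other arrays. *Il5* (0.980), *Col6a1* (0.978), *Trim9* (0.963) and *Il13* (0.956) followed. *Csf2* was most like *Gzmd* (0.986), *Arfgef3* (0.986), *Ccl1* (0.985), *Ikzf2* (0.985) and *Gzmg* (0.980). *Gzmg*, a granzyme gene, read 10.50 and 9.91 in CD4+ TEM and 7.38 and 7.04 in CD8+ TEM cells, against 4.37 and 4.01 in CD4+ memory cells, the order of *Csf2*. *Il13* was most like *Pdpn* (0.971) and *Hic1* (0.970), *Il5* most like *Il9* (0.980), *Il4* most like *Col6a2* (0.981) and *Il3*, at low signals, most like *Cyp1a1* (0.946). Among the 6 genes themselves r over the 10 arrays was highest for *Il9* with *Il5* (0.98) and lowest for *Il3* with *Il4* (0.577).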

How the data were processed

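The deposited values are log2 signals (1.68 to 14.86) that the authors obtained with RMA, run in BRB-ArrayTools (version not given in the sources used here), and are not centered. Groups follow titles and source names. The records also name germinal center B cells, an edited cell line and, for the *Foxo1* allele, a status unlike between both CD4+ memory arrays and between both CD8+ TEM arrays. These entries were not used. Of 45101 probe sets, 64 were controls, 34945 had 1 symbol in the platform annotation, 932 had several and 9160 none, and only those with 1 were used. Of these, 34741 symbols were updated through Entrez identifiers and 204 kept. A gene was its probe set with the highest mean. With limma 3.58.1 in R 4.3.3, 1 linear model with a mean per group took in the 10 arrays (5 residual degrees of freedom), p-values were adjusted over 18193 genes by Benjamini-Hochberg, and the fit was tested on simulated data. Alternatives changed the probe set rule, filters, normalization, moderation, array weights, arrays fitted and the replicate block, and left out each array in turn. Their effect on list counts was added after seeing the data. The members and lists were chosen with earlier results of these data known. Genes were named by rule: all members, the sort markers *Cd4*, *Cd8a*, *Cd8b1* and *Cd44*, of each other list up to 4 called genes with the largest change, and the 5 genes most like each member by Pearson's r. Not all genes that this rule picked are given in the text. Single values of other listed genes were given after they were seen. Motifs were searched in RefSeq promoter windows of GRCm38.p6 with Python 3.11.15, and plots drawn with matplotlib 3.10.9. The number of arrays limits the precision. Some genes of the lists were not analysed here.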

Additional observations from a re-analysis of the deposited data

Results flagged for a closer look

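For 3 cytokine genes the change from naïve to TEM cells differed between CD4+ and CD8+ cells by a test of the difference itself (limma, adjusted p under 0.05): *Il9* by 7.04 on the log2 scale, *Il13* by 3.41 and *Il5* by 1.91, each larger in CD4+ cells. The 3 genes read alike in both naïve groups, within 1 log2 unit. All other genes of the lists that passed the same test follow, as the CD4+ change minus the CD8+ change.

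Among receptors upstream of type 2 and IL-9 production it was 2.76 for *Il2rb*, 1.40 for *Tgfbr1*, 1.199 for *Tnfrsf4* and -2.77 for *Il2ra*. Among transcription factors it was 3.44 for *Gfi1*, 1.66 for *Notch1*, 0.95 for *Stat6*, -1.63 for *Batf3* and -2.25 for *Pparg*. Among repressors it was 5.38 for *Eomes*, 2.23 for *Bcl6*, 1.19 for *Runx3*, 1.05 for *Foxo1* and -1.27 for *Zbtb32*, and among other cytokines -1.98 for *Il24*. Surface and chemokine genes had 4.68 for *Plac8*, 3.56 for *Ccl1*, 2.98 for *Penk*, 2.45 for *Ccr8*, -1.14 for *Cysltr1*, -1.43 for *Ccr3* and -2.94 for *Tnfsf11*. Chromosomal neighbours had 2.26 for *Rad50*, 1.96 for *Septin8*, 1.45 for *Irf1* and -1.82 for *Pdlim4*. Markers of cell types and sorts had 2.97 for *Cd79b*, 2.90 for *Cd8a*, 2.74 for *Kit*, 1.72 for *Cd68*, -1.41 for *Mcpt8*, -1.47 for *Cd14*, -2.51 for *Cd44* and -2.65 for *Cd4*.

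Several of these came with naïve groups that differed more than the TEM groups. *Gfi1* read 8.32 and 7.40 in CD4+ TEM and 7.83 and 8.08 in CD8+ TEM cells, against 6.18 and 5.06 in naïve CD4+ and 9.29 and 9.02 in naïve CD8+ cells. *Plac8* read 11.37 and 11.38 in CD4+ TEM and 12.32 and 12.36 in CD8+ TEM cells, against 4.31 and 5.07 in naïve CD4+ and 10.25 and 10.43 in naïve CD8+ cells. *Rad50* read 8.02 and 8.07 in CD4+ TEM and 8.17 and 7.73 in CD8+ TEM cells, against 5.54 and 6.30 in naïve CD4+ and 7.98 and 8.19 in naïve CD8+ cells. *Tnfsf11* read 11.37 and 11.27 in CD4+ TEM and 11.04 and 11.02 in CD8+ TEM cells, against 7.77 and 7.40 in naïve CD4+ and 4.98 and 3.73 in naïve CD8+ cells. The differences of *Batf3*, *Rad50* and *Tnfsf11* lost their calls without single arrays, at ranges of -1.767 to -1.496, 1.877 to 2.635 and -3.564 to -2.315. Beside these and the cytokine genes, only *Gfi1*, *Notch1*, *Pparg*, *Ccl1*, *Penk*, *Plac8* and *Kit* were followed without single arrays. The stability of the other calls listed above is not known. Among them *Zbtb32*, *Cysltr1*, *Pdlim4* and *Foxo1* were near the threshold in the limma fit to all arrays (adjusted p = 0.0497, 0.0452, 0.0334 and 0.0321).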

How the results depend on the processing

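The calls of *Il9* and *Il13* in each comparison of CD4+ TEM cells, and of *Csf2* against memory and naïve cells, were kept under all 20 alternatives. With a fit to only the arrays compared, 3 of the 6 cytokine genes and 223 of all genes were called between CD4+ TEM and CD4+ memory cells, in place of 5 and 1005. Between CD4+ memory and naïve CD4+ cells, 1 of the 6 was called with trended robust moderation, 1 with array weights, 1 with the replicate block and 0 with only the arrays compared, in place of 2. Taking every probe set as a feature raised the calls over all features to 1787 for CD4+ TEM against CD8+ TEM cells, 6562 for CD4+ memory against CD8+ TEM cells, 8627 for CD4+ TEM and 7443 for CD4+ memory against naïve CD4+ cells, and 12093 for CD8+ TEM against naïve CD8+ cells, out of 34945 features. Array weights gave 2477 for CD4+ TEM against CD8+ TEM cells. Leaving out 1 array gave 490 to 1140 genes for CD4+ TEM against CD4+ memory cells, 219 to 1436 for CD4+ TEM against CD8+ TEM cells, 1724 to 4092 for CD4+ memory against CD8+ TEM cells, 3185 to 5346 for CD4+ TEM and 2575 to 4497 for CD4+ memory against naïve CD4+ cells, and 982 to 2774 for the difference of changes, with the lowest counts without CD4+ TEM replicate 1, CD8+ TEM replicate 2 or naïve CD4+ replicate 2. It gave 0 to 2 of the 6 genes for CD4+ memory against naïve CD4+ cells, with 0 called without CD4+ memory replicate 1, either CD8+ TEM array or naïve CD4+ replicate 1. The causes of these shifts were not tested.

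Signs turned only for values that were not called, the largest being 0.53 for *Csf2*. Between CD4+ memory and CD8+ TEM cells quantile normalization gave -0.048 for *Il5* and -0.049 for *Il9*, and leaving out 1 array gave ranges of -0.067 to 0.19 for *Il3*, -1.03 to 0.38 for *Il4*, -0.043 to 0.054 for *Il5* and -0.41 to 0.41 for *Il9*. Between CD4+ memory and naïve CD4+ cells quantile normalization gave -0.060 for *Il5*, and leaving out 1 array gave -0.020 to 0.23 for *Il3*, -0.021 to 0.076 for *Il5* and -0.12 to 1.19 for *Csf2*. Between CD8+ TEM and naïve CD8+ cells leaving out 1 array gave -0.10 to 0.73 for *Il9* and -0.13 to 0.075 for *Il3*. Same-numbered replicates did not deviate together (correlations of -0.036 to 0.029). That reads only shared deviations from the group means, so it cannot show whether they share an animal or a culture. With the replicate block the *Il4* difference between CD4+ TEM and CD4+ memory cells had an adjusted p of 0.0705 and the *Csf2* difference between the TEM groups one of 0.0534. Signals below the array medians, as for *Il3*, limit what can be read from small differences.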
